A study of Mus musculus with 2 samples.

Results

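Mouse chromosome 11 carried 2027 regions of dimethylated lysine 79 of histone H3 (H3K79me2), of 27892 on chromosomes 1 to 19. Members were chosen by reads in 1 of the 2 libraries. A region is a run of 1 kb bins with 12 or more distinct reads in replicate 2, joined over up to 2 bins below that count and at least 2 bins wide. Positions below 3.2 Mb, where reads with 2 placements pile up, were left out for levels, which leaves 2019 regions on chromosome 11 of 27861 on all autosomes. The counts of replicate 2 in these regions are therefore the rule itself and are given as a description. Replicate 1 was not used by the rule.

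Both libraries came from mouse embryonic fibroblasts (MEF), connective tissue cells from embryos, kept in DMEM with 10% FBS. They form 1 group: their labels name no treatment, genotype, strain or embryo age, and no other condition or input library was analysed here. Chromatin was precipitated with the same antibody against H3K79me2 (Abcam AB3594). The libraries differ in the flow cell and date of their labels and in the upper gel limit, which was 350 bp for replicate 1 and 300 bp for replicate 2, and these cannot be told apart. The labels do not say whether they came from separate cultures, so the spread between them may be technical. They are numbered by accession order, which pairs nothing.

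H3K79me2 is placed by the methyltransferase DOT1L, which travels with the machinery of transcription elongation. The mark lies in the bodies of transcribed genes, is usually highest in their first part and falls off toward their end, so a block of the mark often has a strong and a weak side. Mouse chromosome 11 is known as one of the gene-rich mouse chromosomes, with its centromere at the start of the coordinates. No gene coordinates of the build used (mm8) were at hand. Regions are therefore given by position, no gene, exon or intron is assigned, and marker genes of fibroblasts were not examined.

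Chromosome 11 held 899077 distinct reads with 1 placement in replicate 1 and 876448 in replicate 2. Repeated positions made up 15.4% of its reads in replicate 1 and 5.89% in replicate 2, close to the 15.3% and 5.65% of all autosomes. Background, the median of 10 kb bins that hold reads, was 6.7 reads per kb for replicate 1 and 3.3 for replicate 2. Fold is the count of a region over the count that background would give for its width, with 1 added to each. Intervals and Poisson or binomial tests cover counting error only, as amplified reads carry no molecular identifiers. With 2 libraries, an exact two-sided test over libraries cannot go below 0.5, so chromosome 11 is set beside the other autosomes by its values and rank.

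Chromosome 11 was the most densely marked autosome in both libraries. Its regions covered 22.3 Mb, or 18.8% of the 118.6 Mb examined, against 12.2% over chromosomes 1 to 19. The next highest chromosome was 17 at 15.7%, and the lowest was 14 at 8.39%. Single bins passed the rule in 16.6% of its length, against a background of 10.9% over all autosomes. Since the chromosome was proposed with this density in view, the values of replicate 2 describe the choice. Replicate 1, called on its own with a Poisson test, gave 502 regions over 3.58 Mb of chromosome 11, which is 3.02% against 1.98% over all autosomes. Bins were called there in 2.71% of chromosome 11, against a background of 1.84%. The ratio of chromosome 11 to all autosomes was thus 1.52 in replicate 1 and 1.55 in replicate 2, and it ranked first of 19 in both. These ratios come from unlike calls, and that of replicate 2 is the rule, so no mean or spread is given. Chromosome 15 was next in replicate 1, at 2.68%.

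**Figure D1:**
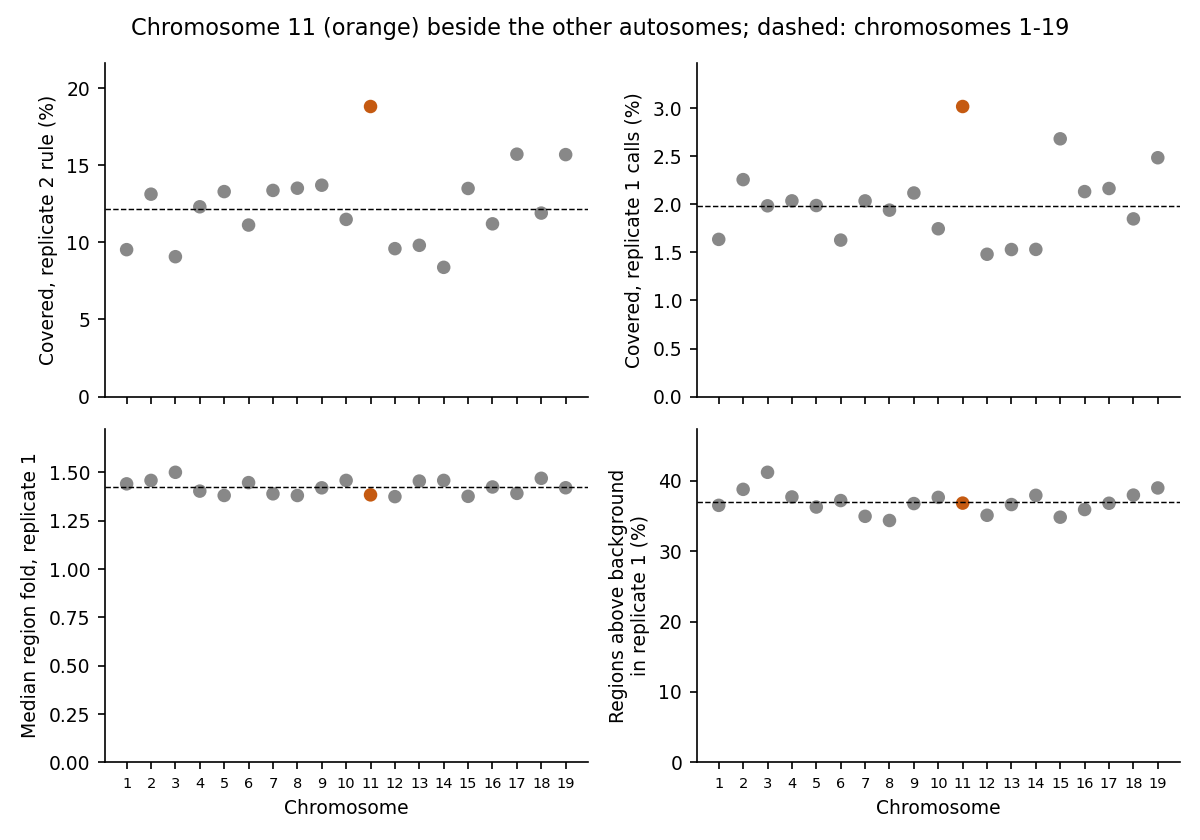
Each point is 1 autosome, with chromosome 11 in orange and the value over chromosomes 1 to 19 as a dashed line; the panels give the percentage covered by regions of replicate 2 and of replicate 1, the median fold of regions in replicate 1, and the percentage of regions above background in replicate 1. Chromosome 11 is highest in both upper panels (18.8% and 3.02%) and lies near the dashed line in both lower panels (1.38 against 1.42, and 36.8% against 37.0%).

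The number of regions per Mb differed more from the other autosomes than their width or level did. Chromosome 11 had 17.02 regions per Mb against 11.6 over all autosomes, a ratio of 1.47 and the highest of 19. Its median width was 6 kb against 5 kb, its mean width 11.1 kb against 10.5 kb, a ratio of 1.06 and rank 5 of 19. Every width class was denser. Regions of 2 to 3 kb stood at 4.92 per Mb against 3.67, regions of 4 to 9 kb at 6.80 against 4.65, regions of 10 to 49 kb at 4.73 against 2.94, and regions of 50 kb or more at 0.582 against 0.340. Reads per kb within regions were 12.7 in replicate 1 against 12.9 over all autosomes, and 22.4 in replicate 2 against 21.9. The ratio of chromosome 11 to all autosomes within regions was 0.979 in replicate 1 and 1.02 in replicate 2 (0.9995 ± 0.0295 SD, n = 2), so the libraries lay on either side of an equal level. The widest region of chromosome 11, 163 kb, was the narrowest maximum of any autosome, where the others ranged from 168 to 333 kb.

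Regions held 57.6% of the reads of chromosome 11 in replicate 2 (exact 95% interval 57.5 to 57.7) and 31.9% in replicate 1 (31.8 to 31.97). Over all autosomes these shares were 49.9% and 23.0%. The chromosome took 6.76% of the autosomal reads of replicate 2 and 5.39% of those of replicate 1, from 4.94% of the span. Reads at 10 kb or more from any region were also denser on chromosome 11, at 3.10 reads per kb against 2.52 in replicate 2 and 5.91 against 5.69 in replicate 1. Bins empty in both libraries made up 4.43% of chromosome 11, the lowest value of the 19 chromosomes, against 8.77% overall. Over the far bins that held reads in either library, the ratio to all autosomes was 1.17 in replicate 2 and 0.985 in replicate 1. The density far from regions therefore stayed above the autosomal value in replicate 2 and did not in replicate 1. The part of this density in the coverage of chromosome 11 was not tested.

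Averaged over long stretches, the mark was sparser before 51 Mb than after it, with dense and empty windows on both sides. In the 4 stretches of about 12 Mb from 3.2 to 51 Mb, regions covered between 9.11% and 13.9%. From 51 Mb on the 6 stretches held between 19.3% and 33.6%, and the last, from 111 to 121.799 Mb, was the highest. Replicate 1 showed the same step in its own calls, with 1.18% to 2.18% of bins called in the first 4 stretches and 2.37% to 3.93% in the others, so the groups of stretches did not overlap in either library. The boundary at 51 Mb was chosen after the values were seen. Single windows of 1 Mb did not follow the step. The 4 nearest the centromere, from 3200001 to 7000000, were covered to 30.1%, 39.6%, 34% and 26%, and beyond the boundary the windows starting at 91000001, 92000001 and 111000001 held no region. The last stretch was highest in replicate 2 but not in replicate 1, where 3.59% of its bins were called. The stretches from 99 to 111 Mb (3.93%), from 51 to 63 Mb (3.88%) and from 75 to 87 Mb (3.83%) stood above it. Median width stayed between 5 and 7 kb throughout. The share of regions that passed the test against background in replicate 1, described below, did not show this step. It was 45.9% and 50.5% in the first pair of stretches and lay between 28.8% and 39% in the other 8.

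**Figure D2:**
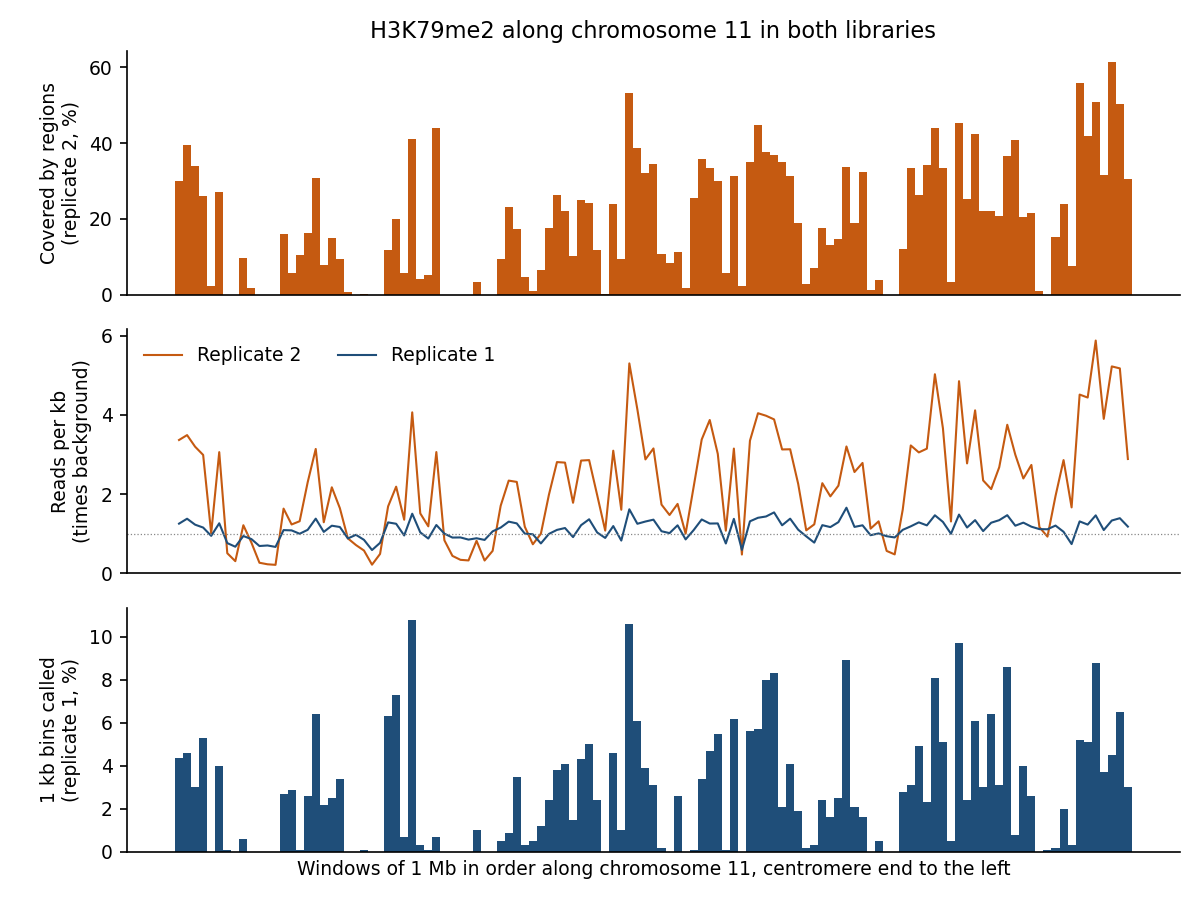
Windows of 1 Mb in order along chromosome 11; the top panel gives the percentage of each window covered by regions of replicate 2, the middle panel reads per kb as times background in both libraries, and the bottom panel the percentage of 1 kb bins called in replicate 1. The highest bars of the top panel, up to 61.3%, are at the right end, and some well covered windows have few bins called in replicate 1, such as that starting at 35000001 (43.9% and 0.7%).

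Among 119 windows of 1 Mb the median coverage was 17.3%, with quartiles of 3.6% and 31.9%. Over all autosomes the median was 7.3%. On chromosome 11, 37 windows (31.1%) were covered to 30% or more, against 12.6% of all autosomal windows, and 17 (14.3%) held no region, against 22.1%. The coverage by replicate 2 and the bins called in replicate 1 followed each other over the 119 windows with a Spearman correlation of 0.85. Reads per kb of the libraries correlated at 0.88 (Pearson 0.85). Both libraries share the same placeable sequence in these windows, so these correlations are a description. Neighbouring windows were also alike, with a correlation of 0.50 between the coverage of a window and that of the next.

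The 5 windows with the largest coverage were 4 at the distal end and 1 in the middle. The window from 119000001 to 120000000 was covered to 61.3% by 37 regions starting in it, and stood at 5.22 times background in replicate 2 and 1.33 times in replicate 1. The window from 115000001 to 116000000 was covered to 55.8%, that from 117000001 to 118000000 to 50.9%, and that from 120000001 to 121000000 to 50.4%. In the middle of the chromosome, the window from 59000001 to 60000000 was covered to 53.3%, with 5.30 times background in replicate 2 and 1.62 times in replicate 1. This window had more bins called in replicate 1 (10.6%) than the other 4 (4.5% to 8.8%). A pair of windows 3 Mb apart, chosen after the values were seen, had like coverage in replicate 2 and differed in replicate 1. The window from 32000001 to 33000000 was covered to 41.1% with 10.8% of bins called in replicate 1. The window from 35000001 to 36000000 was covered to 43.9% with 0.7% of bins called.

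Of the 5 longest unmarked stretches, 4 lay before 51 Mb. The longest ran from 35873001 to 40246000, 4373 kb, and began within the densely covered window just named. It held 0.508 times background in replicate 2 and 0.915 times in replicate 1, and 94.7% of its bins held reads of that library. The stretch from 12212001 to 16403000 (4191 kb) was lower, at 0.332 and 0.717 times background in replicates 2 and 1. The others of the 5 longest ran from 90504001 to 93678000 (3174 kb, 0.628 and 0.900 times), from 8848001 to 11720000 (2872 kb, 0.477 and 0.734 times) and from 40599001 to 43223000 (2624 kb, 0.488 and 0.911 times). Between 5 and 11 single bins in each still passed 12 reads in replicate 2, and at most 1 was called in replicate 1. Of the 5 windows named for the smallest coverage, all at 0%, each lay within 1 of these stretches: the windows starting at 9000001 and 10000001 in that from 8848001, and those starting at 13000001, 14000001 and 15000001 in that from 12212001. In replicate 2 they held 0.214 to 0.507 times background, and in replicate 1 they held 0.667 to 0.763 times. Gaps of 1000 kb or more numbered 15 and made up 27.9% of the chromosome, against 38.2% over all autosomes.

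Between the empty stretches, regions stood close together. The median gap was 10 kb, against 12 kb over all autosomes, and 51.0% of gaps were 10 kb or less, against 46.6%. Joining regions across such gaps gave 991 chains, of which 436 held more than 1 region, and 72.5% of regions were in such chains, against 67.7% overall. The chain with the most regions had 19, from 44481001 to 44711000, with 62.6% of its 230 kb covered, 3.30 times background in replicate 2 and 1.40 times in replicate 1. The longest, from 107833001 to 108160000, held 12 regions over 327 kb at 5.34 and 2.04 times background. These chains differ in level: that from 59429001 to 59711000, with 13 regions over 282 kb, stood at 6.77 and 2.03 times background, while that from 88299001 to 88535000, with 16 regions over 236 kb, stood at 3.65 and 1.42 times.

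Replicate 1, which took no part in choosing the regions, was above its own background in most of them, by a small amount in narrow regions and a larger one in wide regions. Reads per kb exceeded background in 85.6% of the 2019 regions, against 87.3% over all autosomes. The median fold was 1.38 against 1.42. In the exact one-sided Poisson test, with Benjamini-Hochberg adjustment over all 27861 regions, 744 regions (36.8%) passed an adjusted p of 0.001, and the background over all autosomes was 37.0%. Chromosome 11 ranked 9 of 19 in this share. The share that passed was higher in wider classes: 9.95% of the 583 regions of 2 to 3 kb passed, 23.7% of the 806 regions of 4 to 9 kb, 76.1% of the 561 regions of 10 to 49 kb and 68 of the 69 regions of 50 kb or more. Over all autosomes the same classes passed in 9.47%, 28.4%, 77.8% and 99.8%. The median folds of these classes on chromosome 11 in replicate 1 were 1.25, 1.29, 1.74 and 2.18. Fold and number of reads both increase with width here, and their parts in the share that passed were not tested apart. With a threshold of 20 reads in place of 12, 70.2% of 1065 regions passed on chromosome 11 and 72.0% over all autosomes, and with a fold of at least 2 required, 17.8% and 18.6% passed.

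Every step up in the replicate 2 count of a bin went with a step up in replicate 1, and there was no jump at the threshold. The 2741 bins of chromosome 11 just below it, with 11 reads, held a mean of 8.55 reads in replicate 1. The 2236 bins just inside it, with 12 reads, held 8.66. Bins with 2 or 3 reads in replicate 2 held 6.54 reads in replicate 1, close to its background of 6.7. At 20 to 29 reads the mean in replicate 1 was 13.3, at 40 to 59 reads it was 19.8, and at 60 or more it was 25.3, or 3.78 times background. In that top class 64.0% of 1089 bins were called in replicate 1. The range from the threshold class to the top class was therefore from 1.29 to 3.78 times background in replicate 1.

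The 4630 bins below the threshold that were bridged within regions held 9.41 reads in replicate 1, or 1.40 times background. The 1983 bins that passed 12 reads but formed no region held 7.99 reads, or 1.19 times background. In replicate 1, bins that failed the threshold inside regions thus stood above bins that passed it on their own. Called bins within regions held 13.5 reads, unmarked bins under 10 kb from a region 7.39, and bins farther away 5.88.

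Across region edges replicate 1 rose over several kb. For the 630 regions of 10 kb or more, the mean in replicate 1 was 1.08 times background 5 kb outside the edge and 1.25 times in the first bin outside. It was 1.48 times in the first bin inside, 1.94 times in bin 3 and level over bins 4 and 5, at 2.01 and 1.99 times. Bins 1 to 5 average 1260 edges. Bin 10, at 2.16 times, averages the 592 edges of the wider regions. In replicate 2 the values 5 kb and 1 kb outside were 1.90 and 2.06 times background, and those in bins 1, 3 and 10 inside were 6.04, 6.52 and 8.03 times, where the jump at the edge is set by the rule. The profile over all autosomes ran close to it in both libraries, at 1.53 and 1.94 times background in bins 1 and 3 inside in replicate 1. Regions of 2 to 9 kb reached 1.34 and 1.40 times background in their first and second bins in replicate 1.

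**Figure D3:**
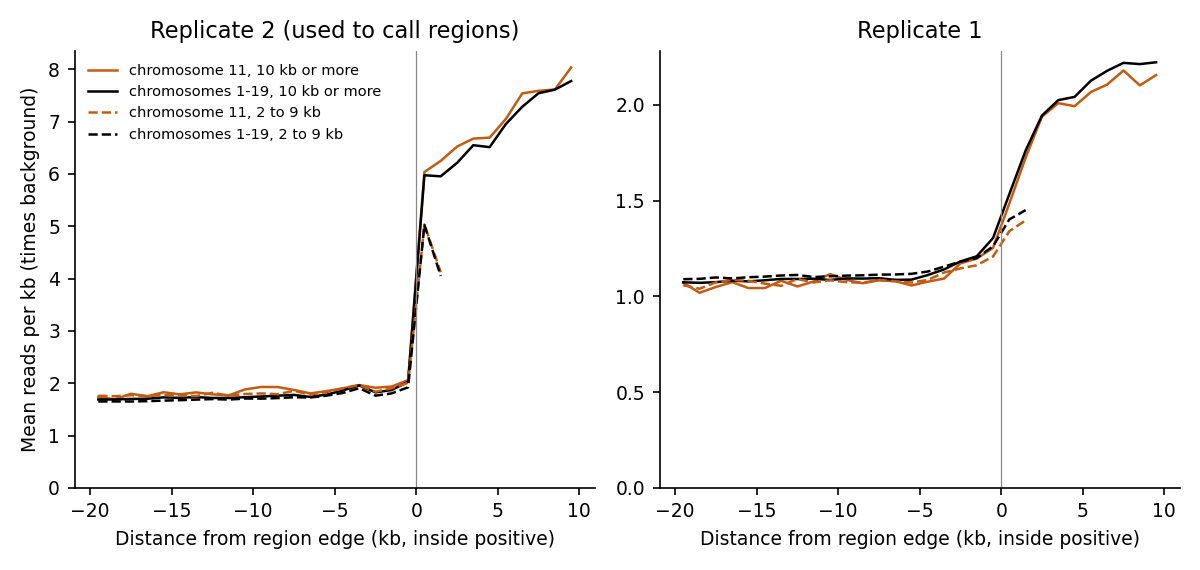
Mean reads per kb, as times background, by distance in kb from the edge of a region (inside positive, both edges pooled, bins of other regions left out outside), for replicate 2 on the left and replicate 1 on the right; orange is chromosome 11 and black chromosomes 1 to 19, solid lines regions of 10 kb or more and dashed lines 2 to 9 kb. Replicate 2 jumps at the edge from 2.06 to 6.04 times background in the wide regions of chromosome 11, and replicate 1 climbs from 1.25 at the edge to 1.94 in bin 3 inside.

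Levels of the libraries followed each other over the regions, mostly over the wide ones. Spearman's correlation of fold over the 2019 regions was 0.62 (Pearson's r of log2 fold 0.68), against 0.56 and 0.62 over all autosomes. It was 0.29 in regions of 2 to 3 kb, 0.45 at 4 to 9 kb, 0.73 at 10 to 49 kb and 0.56 at 50 kb or more. Regions are not replicates and share depth and placeable sequence, so no p-value is given.

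**Figure D4:**
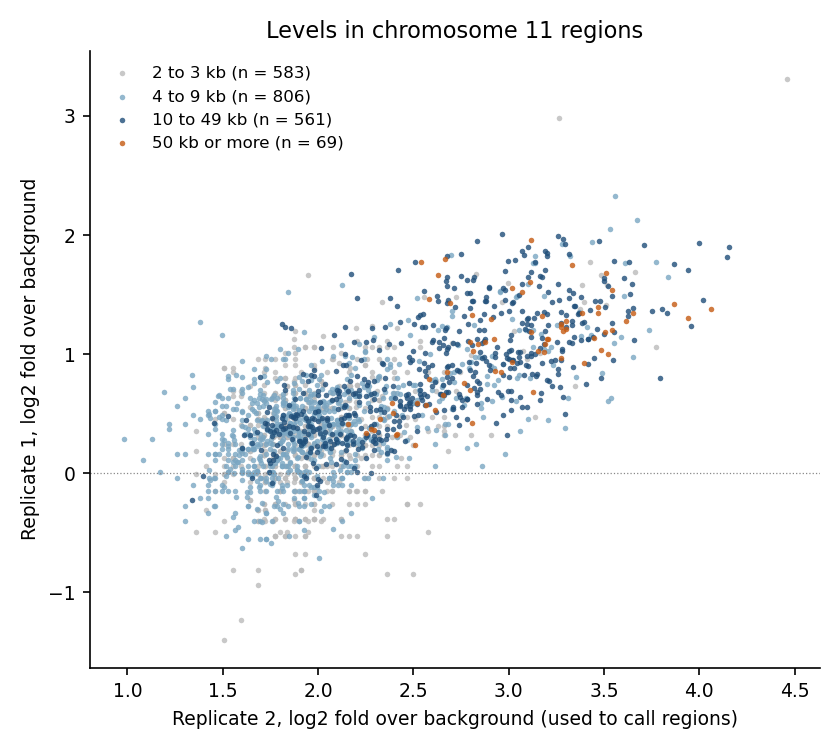
Each point is 1 of the 2019 regions of chromosome 11, by its log2 fold over background in replicate 2 (horizontal) and replicate 1 (vertical), coloured by width. Narrow regions (grey and light blue) gather at low folds in both libraries, the 69 regions of 50 kb or more (orange) lie above 0 in replicate 1, and a pair of 2 kb regions stands above the rest of the narrow ones.

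The 8 widest regions, from 109 to 163 kb, were marked in both libraries, with 2.14-fold as the lowest value in replicate 1 and 6.95-fold in replicate 2. The widest, from 68507001 to 68670000, held 2342 reads in replicate 1 and 3745 in replicate 2, or 2.14-fold and 6.95-fold. The next, from 108003001 to 108160000 (157 kb), was 2.51-fold and 6.99-fold, and that from 76065001 to 76216000 (151 kb) was 2.90-fold and 11.7-fold. The region from 117039001 to 117184000 (145 kb) reached 16.7-fold in replicate 2, the highest of the 8, but 2.61-fold in replicate 1, which lay among the others. The order of these regions therefore differed between libraries. In replicate 1 the highest was that from 59472001 to 59581000 (109 kb), with 2341 reads or 21.5 per kb, and 11.4-fold in replicate 2. The other 3 ran from 8438001 to 8567000 (129 kb, 2.31-fold and 9.87-fold), from 59919001 to 60046000 (127 kb, 2.54-fold and 12.6-fold) and from 16651001 to 16770000 (119 kb, 2.46-fold and 7.50-fold). The 1 region of 50 kb or more that did not pass in replicate 1, singled out after its value was seen, lay from 96109001 to 96163000. It had 427 reads in replicate 1, or 1.18-fold (exact one-sided Poisson test, adjusted p = 0.00122), and 5.68-fold in replicate 2.

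The 8 regions of 4 kb or more with the most reads per kb in replicate 2 were compact blocks of 15 to 33 kb, apart from those of 145 kb and 81 kb. The highest, from 100770001 to 100789000, had 59.7 reads per kb in replicate 2 (17.8-fold) and 25.2 in replicate 1 (3.73-fold). That from 96632001 to 96647000 had 59.5 (17.7-fold) and 23.7 (3.52-fold), and that from 60678001 to 60697000 had 53.5 (15.97-fold) and 25.7 (3.82-fold). The region from 79525001 to 79558000 had 51.03 (15.3-fold) and 21.9 (3.26-fold). The others were lower in replicate 1, among them the 145 kb region given above. The region from 3794001 to 3814000 was 2.73-fold there, that from 97231001 to 97312000 2.47-fold and that from 100223001 to 100241000 2.35-fold, against 16.2-fold, 15.4-fold and 15.5-fold in replicate 2. All 8 passed the Poisson test in replicate 1, and the largest adjusted p was 3.75e-36, for the region from 100223001 to 100241000. Most regions of such widths passed. On chromosome 11 the shares were 76.1% at 10 to 49 kb and 98.6% at 50 kb or more, against 77.8% and 99.8% over all autosomes.

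Chromosome 11 had 1436 regions of 4 kb or more, so lists of 8 are too short for their overlap to measure agreement between libraries. The 8 of these regions with the highest fold in replicate 1 shared no member with the 8 above. The highest ran from 3545001 to 3551000, 6 kb wide, with 5.02-fold in replicate 1 and, in replicate 2, 11.8-fold. It was followed by 8 kb from 107295001 to 107303000 (4.38-fold and 12.8-fold), 4 kb from 40595001 to 40599000 (4.14-fold and 11.5-fold) and 33 kb from 86542001 to 86575000 (4.02-fold and 7.82-fold). The region from 40595001 to 40599000 is the last before the unmarked stretch that starts at 40599001. The last 4 were from 50152001 to 50170000 (3.98-fold and 9.57-fold), from 104351001 to 104369000 (3.91-fold and 9.75-fold), from 106687001 to 106737000 (3.88-fold and 8.68-fold) and from 30155001 to 30172000 (3.87-fold and 11.1-fold). In replicate 2 all 8 were below the 15.3-fold that the preceding 8 reached or passed, as those were chosen by replicate 2.

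A pair of 2 kb regions, singled out after their values were seen, reached higher folds and was rich in reads with 2 placements. The region from 108827001 to 108829000 was 9.93-fold in replicate 1 and 22.0-fold in replicate 2, and that from 53983001 to 53985000 was 7.92-fold and 9.61-fold. Distinct positions of reads with 2 placements stood there at 36.5 and 33.9 times the autosomal density in replicate 1 and at 58.4 and 28.3 times in replicate 2. In the 8 regions highest in replicate 1 that density was at most 2.37 times in replicate 1.

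Near the centromere, 8 regions started below 3.2 Mb and were left out of all levels. The largest ran from 3025001 to 3114000 and held 11041 reads in replicate 1 and 6703 in replicate 2, or 18.5-fold and 22.7-fold. Its reads with 2 placements stood at 66.9 times the autosomal density in replicate 1. The region at the first bins, from 3000001 to 3004000, was higher in replicate 1 (9.68-fold) than in replicate 2 (4.23-fold), unlike the others. The remaining 6 lay between 3118001 and 3216000, at 1.11-fold to 2.25-fold in replicate 1 and 3.22-fold to 9.34-fold in replicate 2.

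A minority of wide regions had a side that was higher in both libraries, at a share near that of all autosomes, and where both called one it was nearly always the same side. Each of the 630 regions of 10 kb or more was divided into 3 parts of like length, and reads in the first and the last part were compared within each library, with an exact binomial test adjusted by Benjamini-Hochberg over all 7870 such regions of the autosomes. On chromosome 11, 339 regions (53.8%) passed an adjusted p of 0.01 in replicate 2, against a background of 50.5%. In replicate 1, 216 (34.3%) passed, against a background of 32.0%. Both libraries called 193 regions (30.6%), against a background of 28.5%, and in 190 of these (98.4%) the same side was higher. Over all autosomes the sides matched in 99.2% of regions called in both. The higher side was the first in 92 and the last in 98. Of the 146 regions that passed in replicate 2 alone, the side with more reads in replicate 1 was the same in 125 (85.6%). Over all 630 the sides matched in 77.9%, and the log2 ratios of the libraries had a Spearman correlation of 0.78. Over all autosomes these 3 values were close, at 83.7%, 75.4% and 0.75. Placeable sequence within a region is the same in both libraries and enters these ratios, and its part was not tested.

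**Figure D5:**
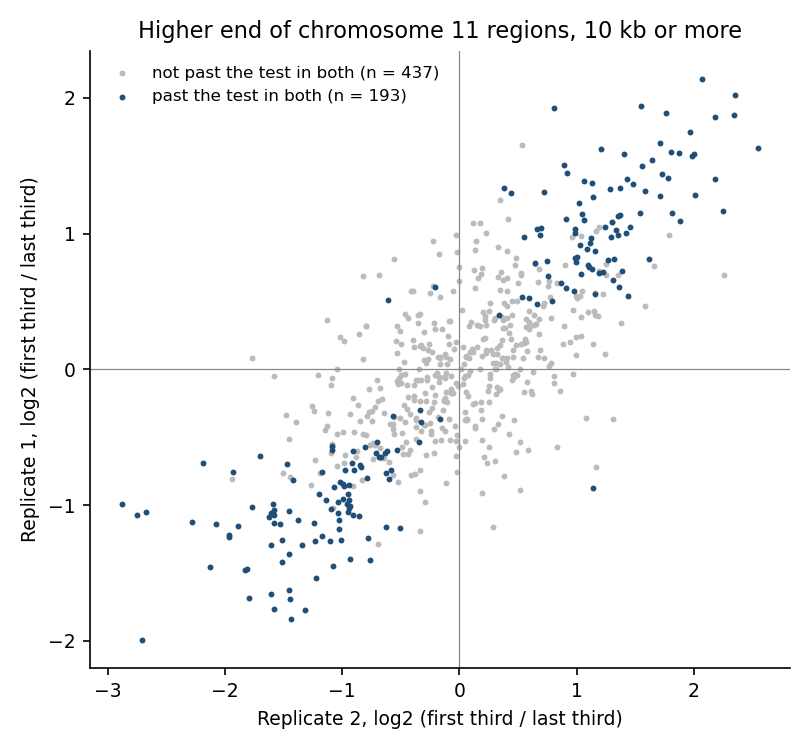
Each point is 1 of the 630 regions of 10 kb or more on chromosome 11, by the log2 ratio of reads in the first over the last of its 3 parts in replicate 2 (horizontal) and replicate 1 (vertical); blue points passed the binomial test in both libraries. Of the 193 blue points, 190 lie at the lower left or upper right, where the same side is higher in both libraries.

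The 6 regions with the steepest slopes in replicate 1 were taken from the 193 called in both libraries. As 190 of those share their higher side, the like direction in replicate 2 nearly follows from this choice. They are given as examples. From 74465001 to 74483000 the first part held 156 reads and the last 35 in replicate 1, and 355 and 84 in replicate 2 (log2 ratios 2.14 and 2.07). From 88815001 to 88828000 the counts were 91 and 22 in replicate 1, and 232 and 45 in replicate 2 (2.02 and 2.35). From 115846001 to 115878000 they were 201 and 52, and 370 and 126 (1.94 and 1.55). In the other direction, from 70216001 to 70227000 the first part held 21 reads and the last 85 in replicate 1, and 26 and 172 in replicate 2 (-1.99 and -2.70). From 59018001 to 59046000 the counts were 80 and 287, and 205 and 557 (-1.84 and -1.44), and from 106024001 to 106041000 they were 42 and 145, and 68 and 170 (-1.78 and -1.32). In the region from 59472001 to 59581000, among the widest, the slope ran over 109 kb, with 1071 and 409 reads in replicate 1 and 1731 and 827 in replicate 2.

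The 3 regions whose sides were opposite in the libraries were identified after their values were seen. From 23154001 to 23167000, replicate 1 had 39 reads in the first part and 72 in the last, and replicate 2 had 139 and 63. From 62252001 to 62283000 the counts were 191 and 134 in replicate 1 and 164 and 250 in replicate 2. From 109464001 to 109539000, 75 kb wide, they were 472 and 309, and 796 and 920. The bin with the most reads within a region was the same in both libraries in 15.6% of the 630 regions and within 1 kb in 40.3%, against 16.1% and 37.5% over all autosomes.

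Counts of the libraries departed from their common ratio in some regions, and more often toward replicate 2 on chromosome 11 than overall. The exact binomial test compared both counts with the ratio of the totals over all autosomal regions (0.590), adjusted by Benjamini-Hochberg over 27861 regions, and it compares 2 libraries, not conditions. Replicate 2 counts chose these regions and also enter this test, so its calls are a description. On chromosome 11, 136 regions (6.74%) were higher in replicate 1, against a background of 9.71%, and 158 (7.83%) were higher in replicate 2, against a background of 6.45%. Of the 294 calls, 46.3% were thus toward replicate 1. This split depends on the scaling: it was 27.5% of 313 calls with the median ratio, 0% of 1527 with all distinct reads and 0% of 1982 with background as the scale. Direction is therefore relative to the scale chosen. Chromosome 11 ranked 17 of 19 in the share higher in replicate 1 and 7 of 19 in the share higher in replicate 2. Among the 69 regions of 50 kb or more, 38 calls were toward replicate 2 and 12 toward replicate 1. Over all autosomes they were 387 and 171 of 817 such regions. Among the 561 regions of 10 to 49 kb they were 97 and 89 on chromosome 11. Over all autosomes this class had 1059 calls toward replicate 2 and 1538 toward replicate 1, of 7053 regions.

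Calls toward replicate 2 gathered at the distal end. Over chromosome 11, 7.83% of regions were higher in replicate 2 and 6.74% in replicate 1, against 6.45% and 9.71% over all autosomes. In the last stretch, from 111 to 121.799 Mb, 46 of 263 regions were higher in replicate 2 and 3 in replicate 1. The median log2 ratio of replicate 1 to replicate 2 there was -0.16. Between 15 and 27 Mb the numbers were 1 and 14 of 91 regions, with a median of 0.32. The other 8 stretches, of 100 to 309 regions, each held 4 to 20 higher in replicate 2. They held 5 to 26 regions higher in replicate 1, with medians between -0.06 and 0.20. Reads far from regions in replicate 2 stood at 2.18 to 2.59 per kb in the stretches before 51 Mb. These held 91 to 135 regions each, of which 1 to 12 were higher in replicate 2. From 51 Mb on the values were 3.22 to 4.27 per kb, with 13 to 46 such regions of 223 to 309. The later stretches held more regions, so these counts are not shares. As shares the groups overlapped. The 12 of 135 regions from 3.2 to 15 Mb are a larger share than 13 of 309 from 75 to 87 Mb or 17 of 223 from 87 to 99 Mb. Within these groups the order was not the same, and the part of this density in the calls was not tested. The last stretch stood at 4.18 per kb and that from 15 to 27 Mb at 2.59. The highest value, 4.27 from 75 to 87 Mb, went with 13 regions higher in replicate 2 and 26 in replicate 1, and 4.17 from 99 to 111 Mb went with 20 and 20. The lowest was 2.18, from 3.2 to 15 Mb, with 12 and 13. Widths differed as well. The last stretch held 17 of the 69 regions of 50 kb or more, and that from 99 to 111 Mb held 12. The part of width in the calls was not tested.

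The largest ratios toward replicate 1 were in regions of 3 or 4 kb. From 21032001 to 21036000 there were 66 reads in replicate 1 and 36 in replicate 2 (log2 ratio 1.63, exact binomial test, adjusted p = 4.11e-07). From 81862001 to 81865000 there were 66 and 41 (1.44), and from 104195001 to 104199000 there were 79 and 50 (1.42). Toward replicate 2, the region from 68201001 to 68204000 had 14 and 64 reads (-1.39, exact binomial test, adjusted p = 0.00279) and was below background in replicate 1, at 0.711-fold. The region from 75258001 to 75272000, 14 kb wide, had 164 and 653 (-1.23), or 1.74-fold and 13.9-fold, and that from 58752001 to 58756000 had 42 and 164 (-1.19), or 1.55-fold and 11.6-fold.

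Few regions were called in replicate 1 alone. Of the 502 regions that replicate 1 called from 3.2 Mb on, 498 (99.2%) shared 1 bin or more with a replicate 2 region, against 98.4% over all autosomes. The 4 others, named because they are so few, were 2 or 3 kb wide. From 17842001 to 17844000 there were 44 reads in replicate 1 and 11 in replicate 2, and from 47212001 to 47215000 there were 66 and 22. From 93845001 to 93848000 there were 65 and 19, and from 88784001 to 88787000 there were 76 and 41. The last held a bin of 27 reads in replicate 2, which passed the threshold but stood alone.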

How the data were processed

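Per the file headers, the authors placed reads on mouse build mm8 with Bowtie (-e 70 -k 2 -m 2 -n 2 -l 36, best placements first), whose version the sources used here do not give. The deposited lists hold other values than counts or scores: each line is the signed position of 1 read, with reads of 1 and of 2 placements in separate sections. Per the labels' protocols, chromatin was sheared to a mean of 500 bp and amplified by 18 cycles of LM-PCR.

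Counts were computed here from distinct signed positions of reads with 1 placement, in 1 kb bins from 3 Mb on. Bins called in replicate 1 needed an adjusted p below 0.001 (one-sided Poisson) and at least 3 times background, which came to at least 21 reads. Tests ran over chromosomes 1 to 19 with Benjamini-Hochberg adjustment. They were also run on simulated counts drawn from the Poisson and binomial models that they assume, so that run covers counting error only. Named were the 8 widest regions, the 8 of 4 kb or more highest in reads per kb in replicate 2, the 8 highest in fold in replicate 1, the 3 with the largest ratio between libraries each way (50 or more reads) and the 3 with the largest ratio between ends each way by replicate 1, with the 5 longest gaps and the 5 windows of largest and smallest coverage. Windows tied at 0% were taken in order of position. The members and lists were chosen with earlier results of these data known. Alternatives changed thresholds, joining, width, repeats, shift, placements, background, depth, scaling and windows, or left out a library. Coordinates count from 1, taking deposited positions to count from 0. Analyses used Python 3.11.15, NumPy 2.4.6, SciPy 1.17.1, pandas 2.3.3 and matplotlib 3.10.9.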

Additional observations from a re-analysis of the deposited data

Results flagged for a closer look

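Reads with 2 placements, which enter no count of regions or levels and are given above only beside a few regions, piled up at the start of chromosome 11 in both libraries. In replicate 1 the bin with the most such reads, from 3059001 to 3060000, held 304 lines, and in replicate 2 that from 3025001 to 3026000 held 369 lines. Positions below 3.2 Mb held 7.83% of the 49453 such lines of chromosome 11 in replicate 1 and 7.65% of the 42892 in replicate 2. From 3.2 Mb on, these reads were 2.06 times as dense in regions as at 10 kb or more from them in replicate 2, and 0.739 times as dense in replicate 1. No control library was analysed, so the comparison is with the rest of the chromosome.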

How the results depend on the processing

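Of 121 alternative values for 18 results, 46 moved and 75 did not, some of them by construction, as given below. No label for a reversed direction was assigned, so a reversal could not be recorded. Counts and shares of regions, the longest gap and the correlation count as moved beyond 1.5 times the main value, and other values beyond the spread between libraries or their interval, so small shifts of a ratio can count and large ones of a count need not. Among those within 1.5 times were 2997 regions without joining and 53.8% above background at an adjusted p of 0.05. Windows without a region came to 10.1% with 10 reads, within their interval. With 10 reads as threshold, regions covered 25.2% of chromosome 11 (1.52 times all autosomes), the median fold in replicate 1 was 1.28, median window coverage 23.5% and the median gap 8 kb. With 15 reads these were 13.2% (1.58 times), 1.57-fold and 13 kb. With 20 reads, 1065 regions covered 8.53% (1.58 times), 70.2% were above background in replicate 1, at a median of 2.04-fold, 22.7% of windows were empty, median coverage was 6.8% and the gap 19 kb. Without joining, coverage was 12.8% (1.58 times), median width 3 kb and gap 5 kb; joining over 5 bins gave 24.5%, 10 kb and 16 kb. Single bins as regions gave 3991 regions, 20.5% (1.52 times) and 2 kb; at least 4 bins gave 17.6% and 8 kb. All reads gave 20.4% covered, and adding reads with 2 placements gave 19.8% and a fold of 1.36. Background as the mean or from chromosome 11 gave folds of 1.35 and 1.34, and a required fold of 2 left 17.8% above background. Windows of 500 kb were empty in 22.3%. Regions of 20 kb or more had a higher end in both libraries in 47.6%. Scaling by the median ratio put 27.5% of differing regions higher in replicate 1; scaling by all distinct reads gave 1527 differing and 0%, and by background 1982 and 0%. Leaving out 1 library gave 502 to 2019 regions, 3.02% to 18.8% covered and a ratio to all autosomes of 1.52 to 1.55. Leaving out replicate 1 repeated the main values of the regions, since replicate 2 alone calls them, and these count as not moved. The read density ratios are means of 2 libraries. With 1 library left out they could not count as moved, since each library lies within the SD of both around their mean. The coverage ratio without replicate 2 could only count as moved, since its spread was taken from the same 2 values. Tests that need both libraries could not be made without either. No paired analysis was possible because the libraries form 1 group. At background, 1 kb holds 6.7 and 3.3 reads, which limits what narrow regions can show.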
